A study of Homo sapiens with 12 samples.

Results

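The receptors and ligands of the epidermal growth factor receptor family were followed by RNA-seq across 5 groups of squamous carcinoma cells in which the transcription factor KLF5 had been silenced or overexpressed. The set held 9 of the 57820 gene IDs in each file: the receptors EGFR, ERBB2 and ERBB3, the ligands AREG, EREG, HBEGF, TGFA and BTC, and ERRFI1, an inhibitor of the receptors. Members were chosen by gene symbol in the HCC95 files and by the same Ensembl ID in the BICR31 files. This rule uses no measured value, but the set was proposed with earlier results of these data known. BICR31, a head and neck squamous cell carcinoma line, had received siKLF5, a small interfering RNA against KLF5 (3 libraries), or the siNC control (3 libraries). The lung squamous cell carcinoma line HCC95 carried the KLF5 missense form E419Q, KLF5 WT or an empty vector (2 libraries each). All 3 HCC95 groups kept the line's own KLF5 gene, so the KLF5 level in the E419Q and WT libraries sums the line's own and the added transcripts. The siRNA sequence, the vector and its promoter, the time of harvest and whether the HCC95 derivatives are clones are not stated in the sources used. Nothing in the labels ties the libraries of a group to separate cultures, and the p-values therefore reflect the spread among these libraries alone, which may be technical.

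As background, the receptors of this family are tyrosine kinases of the cell surface that pair up when a ligand binds and then signal through adaptor proteins to the RAS and ERK cascade. EGFR binds all 5 ligands followed here, ERBB2 has no known ligand and acts as a partner for the others, and ERBB3 has a weak kinase and binds neuregulins. The ligands are made as membrane-bound precursors that proteases such as ADAM17 release, and ERRFI1, also known as MIG6, is induced by receptor signalling and binds the EGFR kinase to shut it off. In squamous carcinomas EGFR is often abundant and is a drug target, and KLF5 is a zinc-finger factor of proliferating epithelium that binds GC-rich and CACCC-type DNA. E419Q alters a residue of the zinc fingers, the region that contacts DNA.

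Because KLF5 binds GC-rich DNA, the promoter windows of 3 members with the largest changes in a comparison are shown, read from RefSeq on GRCh38.p14, a later build than the hg19 to which the reads were aligned. Each window runs from 250 bases before to 50 bases after the annotated start, 5′ to 3′ on the gene's strand, and capitals mark the GC box, GGGCGG or CCGCCC. The ERRFI1 window lies at chr1:8026260-8026559 on the minus strand, the EGFR window at chr7:55018767-55019066 on the plus strand and the TGFA window at chr2:70553777-70554076 on the minus strand.
ERRFI1: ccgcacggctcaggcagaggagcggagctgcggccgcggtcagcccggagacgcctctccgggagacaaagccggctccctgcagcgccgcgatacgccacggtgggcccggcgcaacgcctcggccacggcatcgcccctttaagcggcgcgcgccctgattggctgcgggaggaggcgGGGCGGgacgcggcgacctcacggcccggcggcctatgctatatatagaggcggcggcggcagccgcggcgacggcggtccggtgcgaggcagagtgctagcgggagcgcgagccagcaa
EGFR: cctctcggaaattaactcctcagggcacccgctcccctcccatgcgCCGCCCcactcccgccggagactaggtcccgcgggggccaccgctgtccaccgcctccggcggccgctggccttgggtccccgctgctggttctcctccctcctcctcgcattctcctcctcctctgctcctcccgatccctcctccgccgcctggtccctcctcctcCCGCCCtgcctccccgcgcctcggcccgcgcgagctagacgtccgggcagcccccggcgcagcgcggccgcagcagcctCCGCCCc
TGFA: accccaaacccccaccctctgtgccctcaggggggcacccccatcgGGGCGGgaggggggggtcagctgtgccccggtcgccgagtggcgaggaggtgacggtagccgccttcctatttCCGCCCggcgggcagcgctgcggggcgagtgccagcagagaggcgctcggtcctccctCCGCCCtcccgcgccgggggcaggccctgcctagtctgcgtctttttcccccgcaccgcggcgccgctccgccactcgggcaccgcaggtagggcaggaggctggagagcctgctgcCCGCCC

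The ERRFI1 window held 1 GC box, the EGFR window 3 and the TGFA window 4. A window was found for 8 of the 9 members, all but ERBB3. Of these, 6 held at least 1 GC box, against 44.95% of 35116 RefSeq promoter windows of the same length, and 5 held at least 1 CACC box (GGGTG or CACCC, so either strand, where a match may share bases with a GC box), against 59.9% of all windows. HBEGF had the most GC boxes, 5, and BTC the most CACC boxes, 5. AREG held 1 GC box and 2 CACC boxes, EREG 1 CACC box and no GC box, and ERBB2 neither. EGFR and TGFA each had a further RefSeq window, without a GC box. A member was counted if any of its windows held a match, whereas the shares are of single windows, so these measures are not alike. A match of letters is a description and not a binding site. On chromosome 4 EPGN, EREG, AREG and BTC are consecutive protein-coding genes, so 4 genes for ligands of this family are neighbours.

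Across the series, the files held 2150775 to 2296187 estimated counts per siKLF5 library, 1922356 to 1934365 per siNC library, 3074139 to 3364760 per E419Q library, 3516984 to 3992553 per WT library and 3455397 to 4643792 per empty-vector library. KLF5 (ENSG00000102554.9), the altered gene, was at 882 to 1008 units of the deposited normalised signal in the siKLF5 libraries and 2289 to 2682 units in the siNC libraries, a level of 37.9% of the control. In HCC95 it was at 427 and 442 CPM (counts scaled to library size) with E419Q, 420.0 and 404 CPM with WT, and 149.9 and 136 CPM with the empty vector. All 5 squamous epithelial markers were above 0 in all 12 libraries, though KRT14 had only 5.12 to 18 estimated counts in BICR31. Of 11 markers of fibroblasts, endothelium and immune cells, CD3E was at 0 in all 12 libraries and PTPRC reached at most 2 counts. The immune marker CD14 had 10 to 32 estimated counts per BICR31 library and at most 2 counts in HCC95. It had 83 estimated counts over the siKLF5 libraries and 49 over the siNC libraries (log2 fold change 0.64, limma adjusted p = 0.125). The summed level of the 11 markers was 29.2 to 40.0 CPM with siKLF5 and 18.1 to 27.4 CPM with siNC. In HCC95 this sum was 29.6 to 30.9 CPM with E419Q, 13.5 to 18.8 CPM with WT and 12.7 to 16.2 CPM with the empty vector. VWF, an endothelial marker, rose with siKLF5 (log2 fold change 1.21, limma adjusted p = 0.0222) and with E419Q against the empty vector (1.19, edgeR adjusted p = 7.32e-05) and against WT (0.94, edgeR adjusted p = 0.00162). The call with siKLF5 was lost without siKLF5 A (limma adjusted p = 0.133), siKLF5 C (0.0501) or siNC C (0.0749), and that against WT without WT B (edgeR adjusted p = 0.0636). VWF alone made up 26.0 and 28.2 CPM of the summed level in the E419Q libraries. The other endothelial markers did not pass: CDH5 had 40 estimated counts over the siKLF5 libraries and 16 over the siNC libraries (log2 fold change 1.15, limma adjusted p = 0.0517), and 2 counts with E419Q, 2 with WT and 8 with the empty vector. KDR had a log2 fold change of 0.11 with siKLF5 and was at 0 in all 6 HCC95 libraries. The part of such cells in the results was not tested. In bulk libraries fewer cells of a type and less RNA per cell cannot be told apart.

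After silencing of KLF5, BICR31 cells had higher levels of the inhibitor ERRFI1, the receptor ERBB3 and the ligands AREG, EREG and BTC, and no member fell. ERRFI1 was 3.03-fold and ERBB3 2.23-fold higher, while EGFR, ERBB2, HBEGF and TGFA did not pass the test. All 9 members were tested with limma on log2(signal + 1), and 5 were called higher and 0 lower at an adjusted p of 0.05 over all genes. Of all 15710 genes tested 15.3% were called higher, 10.8% lower and 26.1% in either direction. The median log2 fold change of the members was 0.49, against 0.04 over all genes. On quantile-normalised values the split over all genes was 2005 higher and 2129 lower, against 2404 and 1693 on the deposited scale. The plot of deposited signal by library shows the 3 siKLF5 and 3 siNC values of each member.

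**Figure D1:**
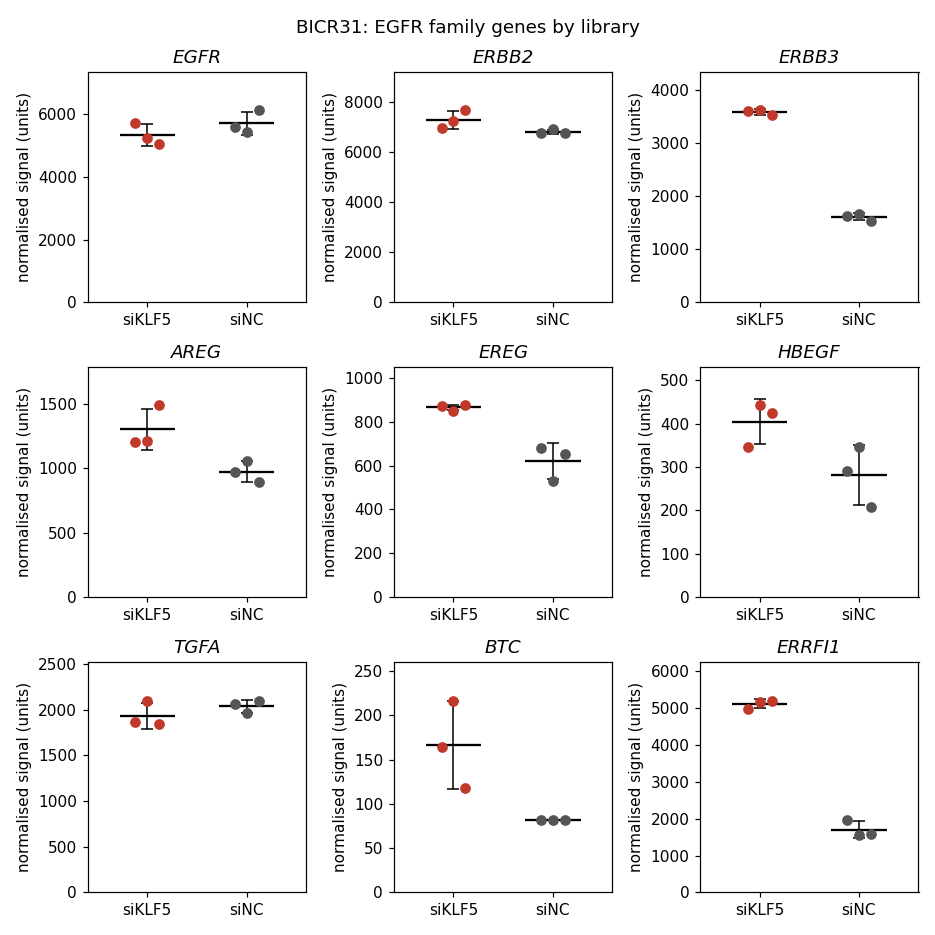
Deposited normalised signal (units) of each of the 9 members in the siKLF5 and siNC libraries of BICR31; points are libraries, horizontal lines the group mean and whiskers the SD. All 3 siKLF5 values lie above all 3 siNC values for ERBB3, ERRFI1, AREG, EREG, BTC and ERBB2, and the groups overlap for EGFR, TGFA and HBEGF. How many of all genes tested lie apart in this way was not counted.

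Among the receptors, ERBB3 (ENSG00000065361.10) had 3607, 3617 and 3528 units in the siKLF5 libraries, against 1618, 1669 and 1536 units in the siNC libraries. The groups lay far apart, and the libraries of each group differed little from each other. The means were 3584 ± 48.9 units with siKLF5 and 1608 ± 67.2 units with siNC (SD, n = 3 each), which is 1.16 on the log2 scale (SE 0.0701, limma adjusted p = 2.25e-09). EGFR (ENSG00000146648.11), the receptor that gives the family its name, had 5719, 5233 and 5047 units with siKLF5, against 5600.0, 5426 and 6134 units with siNC. Its groups overlapped, with a log2 fold change of -0.10 (SE 0.0625, 95% interval of the fold 0.851 to 1.02, limma adjusted p = 0.266). On quantile-normalised values the EGFR log2 fold change was -0.18, with a limma adjusted p of 0.0361. ERBB2 (ENSG00000141736.9), the partner receptor, had 6943, 7225 and 7654 units with siKLF5, against 6746, 6894 and 6757 units with siNC. Every siKLF5 library lay above every siNC library, but the log2 fold change of 0.10 (SE 0.0509) did not pass the test (limma adjusted p = 0.186), and the interval of the fold ran from 0.992 to 1.15.

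The ligand EREG (ENSG00000124882.3), epiregulin, had 871, 850.0 and 874 units in the siKLF5 libraries, against 682, 529 and 650.4 units in the siNC libraries. The siKLF5 libraries lay close together and above each siNC library, and EREG rose 1.40-fold (log2 fold change 0.49, SE 0.125, limma adjusted p = 0.00778). AREG (ENSG00000109321.6), amphiregulin, had 1208, 1208 and 1488 units with siKLF5, against 973, 1058 and 894 units with siNC. Its groups did not overlap, and it rose 1.33-fold (log2 fold change 0.41, SE 0.110, limma adjusted p = 0.00997). The call of AREG was lost without siKLF5 C (limma adjusted p = 0.0763) and without siNC C (0.0531). AREGB, the near-identical copy of AREG listed in the files, was at 0 in all 12 libraries.

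BTC (ENSG00000174808.7), betacellulin, was the lowest of the member ligands in BICR31. It had 164, 217 and 118 units in the siKLF5 libraries, against 81.8, 82.1 and 81.3 units in the siNC libraries. These values correspond to about 20, 26 and 15 counts with siKLF5 and 9 in each siNC library, so the spread among the siNC libraries is less than counting error alone would give. BTC rose 1.96-fold (log2 fold change 0.97, SE 0.319, limma adjusted p = 0.0318), and this call was lost when any library but siKLF5 C was left out (limma adjusted p between 0.0570 and 0.159). HBEGF (ENSG00000113070.6), the heparin-binding ligand, had 345, 442 and 425 units with siKLF5, against 291, 347 and 208 units with siNC, or about 42, 53 and 54 counts against 32, 38 and 23. The groups overlapped by 1 library on each side, and the log2 fold change of 0.54 (SE 0.204) did not pass (limma adjusted p = 0.0616), except without siNC B, where it was 0.71 (limma adjusted p = 0.0287). TGFA (ENSG00000163235.11), transforming growth factor alpha, had 1865, 2100.0 and 1843 units with siKLF5, against 2064, 1961 and 2096 units with siNC. Its groups overlapped, and the interval of the fold was 0.843 to 1.07 (limma adjusted p = 0.528).

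ERRFI1 (ENSG00000116285.8), the intracellular inhibitor of EGFR, had 4979, 5175 and 5205 units in the siKLF5 libraries, against 1973, 1550.2 and 1581 units in the siNC libraries. No other member changed by as large a fold. The means were 5120 ± 122 units with siKLF5 and 1701 ± 236 units with siNC (SD, n = 3 each), and the log2 fold change was 1.60 (SE 0.0840, 95% interval of the fold 2.68 to 3.42, limma adjusted p = 3.70e-10).

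In HCC95 both KLF5 forms were compared with the same 2 empty-vector libraries, so the comparisons are not independent and their values stand side by side here. With E419Q the receptors ERBB2 and ERBB3 rose and the ligand TGFA fell, and EGFR did not pass. With WT the receptor EGFR rose, and TGFA and ERRFI1 fell. Counts of EREG and BTC were too low to test, which left 7 members. Against the empty vector edgeR's quasi-likelihood test called 2 of them higher and 1 lower with E419Q, where 10.4% of 12933 genes were called higher, 10.8% lower and 21.2% in either direction. With WT it called 1 higher and 2 lower, where 10.8% of genes were called higher, 12.1% lower and 22.9% in either direction. The members' median log2 fold change was -0.12 with E419Q and 0.01 with WT, each against 0.00 over all genes.

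**Figure D2:**
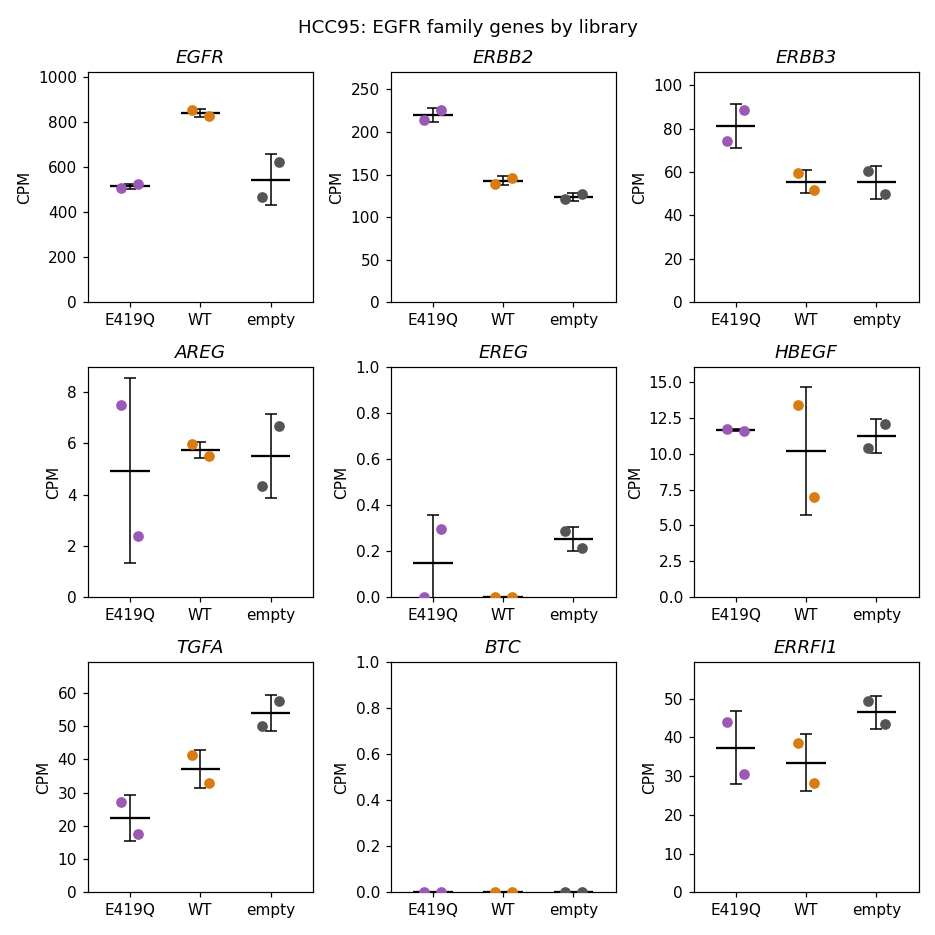
CPM of each of the 9 members in the E419Q, WT and empty-vector libraries of HCC95; points are libraries, horizontal lines the group mean and whiskers the SD. Both WT values of EGFR lie above the other 4 libraries, both E419Q values of ERBB2 and ERBB3 lie above the other 4, and TGFA is lowest in the E419Q libraries and highest in the empty-vector libraries. The share of all genes that separate in such ways was not counted.

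EGFR had 508 and 524 CPM in the E419Q libraries, 854 and 829 CPM in the WT libraries, and 466 and 624.5 CPM in the empty-vector libraries. The WT libraries stood above the rest, and the E419Q values lay between the 2 empty-vector values, which were themselves well apart. With WT the log2 fold change against the empty vector was 0.61 (SE 0.0826, 1.52-fold, 95% interval 1.35 to 1.72, edgeR adjusted p = 1.15e-05). The size of this rise depended on the empty-vector library used, at 0.42 without empty vector A and 0.84 without empty vector B. With E419Q the log2 fold change was -0.12 (SE 0.0853, interval of the fold 0.816 to 1.04, edgeR adjusted p = 0.366). That comparison turned on which empty-vector library was used: the log2 fold change was -0.31 without empty vector A (edgeR adjusted p = 0.000689) and 0.11 without empty vector B. EGFR-AS1, the antisense gene at EGFR, had at most 9 counts in any library. The sources used here do not say whether counting used strand.

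ERBB2 had 214 and 226 CPM in the E419Q libraries, 139 and 146 CPM in the WT libraries, and 121 and 127 CPM in the empty-vector libraries. The 3 groups did not overlap. ERBB2 rose 1.73-fold with E419Q (log2 fold change 0.79, SE 0.0743, 95% interval 1.56 to 1.93, edgeR adjusted p = 4.76e-08), and with WT its log2 fold change of 0.19 (SE 0.0769, interval of the fold 1.02 to 1.27) did not pass after adjustment (edgeR adjusted p = 0.0812). ERBB3 had 74.2 and 88.6 CPM with E419Q, 59.4 and 51.8 CPM with WT, and 60.5 and 49.96 CPM with the empty vector. The WT and empty-vector libraries overlapped, and both E419Q libraries lay above them. ERBB3 rose 1.46-fold with E419Q (log2 fold change 0.55, SE 0.117, edgeR adjusted p = 0.00152), a call lost without E419Q B (edgeR adjusted p = 0.0752). With WT its log2 fold change was 0.01 (interval of the fold 0.845 to 1.199, edgeR adjusted p = 0.971).

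TGFA passed the test with both KLF5 forms, with 27.3 and 17.5 CPM in the E419Q libraries, 41.2 and 33.1 CPM in the WT libraries, and 50.1 and 57.7 CPM in the empty-vector libraries. The 3 groups did not overlap. TGFA was 2.49-fold lower with E419Q (log2 fold change -1.32, SE 0.164, edgeR adjusted p = 3.28e-06). With WT it fell to 0.676 of the empty-vector level (log2 fold change -0.57, SE 0.143, edgeR adjusted p = 0.00604), a call lost without WT B (edgeR adjusted p = 0.135) and without empty vector B (0.0746).

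HBEGF, AREG, EREG and BTC were scarce in HCC95. HBEGF had 11.7 and 11.6 CPM with E419Q, 13.4 and 7.01 CPM with WT, and 10.4 and 12.1 CPM with the empty vector. AREG had 7.48 and 2.38 CPM with E419Q, 5.97 and 5.51 CPM with WT, and 4.34 and 6.68 CPM with the empty vector. For both genes the 3 groups overlapped, and neither passed edgeR's test with E419Q (HBEGF adjusted p = 0.986, AREG 0.730) or with WT (0.667 and 0.989). The interval of the AREG fold with WT, 0.575 to 1.77, was wide, with 43 counts over the 2 WT libraries and 46 over the empty-vector libraries. EREG had 1 count over the 2 E419Q libraries, 0 over the WT libraries and 2 over the empty-vector libraries. BTC had 0 counts in all 6 libraries, which allows a level of up to 0.646 to 0.976 CPM per library as far as counting error goes.

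ERRFI1 had 43.9 and 30.6 CPM in the E419Q libraries, 38.7 and 28.3 CPM in the WT libraries, and 49.5 and 43.5 CPM in the empty-vector libraries. The WT libraries lay below both empty-vector libraries, whereas E419Q A reached just above the lower of them. With WT ERRFI1 fell to 0.714 of the empty-vector level (log2 fold change -0.49, SE 0.156, edgeR adjusted p = 0.0267), a call lost without WT B (edgeR adjusted p = 0.363) and without empty vector A (0.116). With E419Q the log2 fold change was -0.35 (SE 0.157, interval of the fold 0.626 to 0.985, edgeR adjusted p = 0.125), and the call was made without E419Q A, at -0.63 (edgeR adjusted p = 0.0349).

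The receptors also differed between E419Q and WT. KLF5 itself did not pass this test (log2 fold change 0.06, 95% interval of the fold 0.954 to 1.14, edgeR adjusted p = 0.683). E419Q libraries had less EGFR and TGFA and more ERBB2 and ERBB3 than WT libraries. Of the 7 members tested 2 were called higher and 2 lower, where 4.41% of all genes were called higher, 3.59% lower and 8.00% in either direction, and the members' median log2 fold change was 0.14 against 0.00 over all genes. EGFR was at 0.605 of its WT level (log2 fold change -0.72, SE 0.0841, 95% interval of the fold 0.536 to 0.683, edgeR adjusted p = 2.39e-06). ERBB2 was 1.52-fold higher (log2 fold change 0.60, SE 0.0736, interval 1.37 to 1.69, edgeR adjusted p = 4.66e-06). These 2 receptors thus differed in opposite directions.

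ERBB3 was 1.45-fold higher with E419Q than with WT (log2 fold change 0.54, SE 0.118, edgeR adjusted p = 0.00402), a call lost without E419Q B (edgeR adjusted p = 0.157) and without WT B (0.116). TGFA was at 0.595 of its WT level (log2 fold change -0.75, SE 0.178, edgeR adjusted p = 0.00820), a call lost without E419Q B (edgeR adjusted p = 0.262) and without WT A (0.146). AREG, HBEGF and ERRFI1 did not pass, with intervals of the E419Q to WT fold of 0.456 to 1.53 for AREG, 0.771 to 1.70 for HBEGF and 0.862 to 1.40 for ERRFI1. The intervals of AREG and HBEGF do not exclude a 1.5-fold difference.

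**Figure D3:**
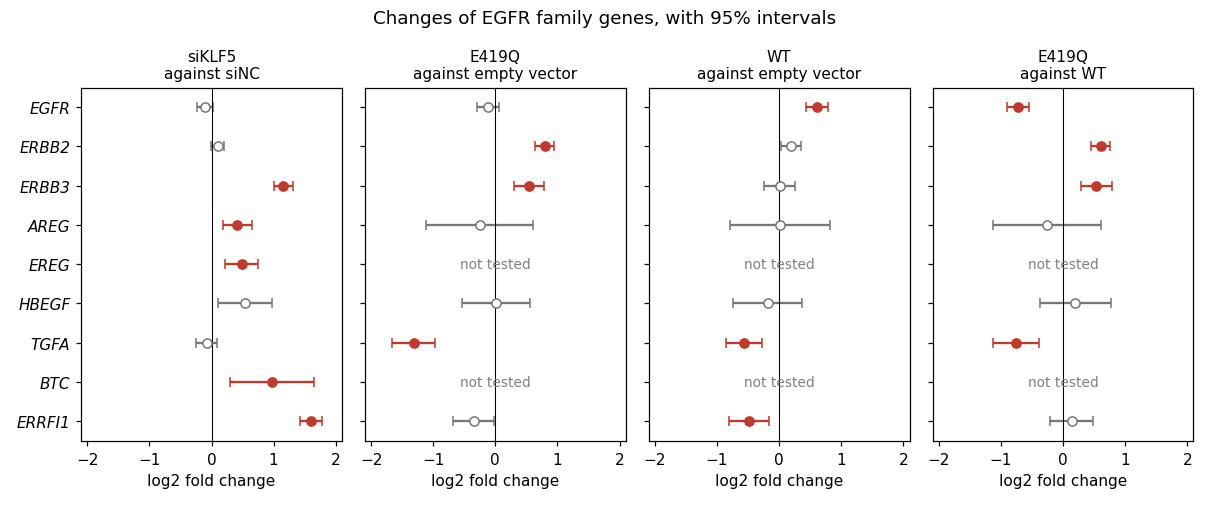
Log2 fold change of each member with its 95% interval in the 4 comparisons (siKLF5 against siNC, E419Q against empty vector, WT against empty vector, E419Q against WT); filled points have an adjusted p under 0.05. ERRFI1 and ERBB3 stand out to the right with siKLF5, TGFA to the left with E419Q, and EGFR and ERBB2 lie on opposite sides of 0 between E419Q and WT.

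Per length, the receptors and ligands ranked differently in the 2 lines. The deposited signal divided by gene length put ERRFI1 (1769 ± 42.3 units per kb) and ERBB2 (1699 ± 83.5 units per kb) at the top with siKLF5, and these overlapped. AREG followed at 1176 units per kb, ERBB3 at 861, EGFR at 622, TGFA at 553, EREG at 305, HBEGF at 171 and BTC at 96.7 units per kb, where EGFR and TGFA overlapped. With siNC the order was ERBB2 (1588 units per kb), AREG (881), EGFR (667), ERRFI1 (588), TGFA (583), ERBB3 (386), EREG (219), HBEGF (119) and BTC (47.5 units per kb), and neighbours among EGFR, ERRFI1 and TGFA overlapped. ERRFI1 thus stood below ERBB2, AREG and EGFR with siNC and above all 3 with siKLF5. The lengths come from the HCC95 files, averaged over those libraries, since the BICR31 files give none. The order per kb in BICR31 thus assumes the same lengths there. EREG and BTC had few or no counts in HCC95.

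In HCC95, EGFR led in TPM (a level scaled by transcript length and library size) in all 3 groups, with 84.8 ± 2.69 TPM with E419Q, 139 ± 0.318 TPM with WT and 99.8 ± 15.99 TPM with the empty vector (SD, n = 2 each). ERBB2 came next, at 76.2 TPM with E419Q, 47.6 TPM with WT and 46.3 TPM with the empty vector, and did not overlap with EGFR in any group. With E419Q the order went on with ERBB3 (29.8 TPM), ERRFI1 (19.99), AREG (9.04), TGFA (8.05) and HBEGF (7.82 TPM), of which AREG overlapped with TGFA and TGFA with HBEGF. With WT it went on with ERBB3 (22.5 TPM), ERRFI1 (17.9), TGFA (16.8), AREG (8.15) and HBEGF (6.55 TPM), with overlaps between ERBB3 and ERRFI1, ERRFI1 and TGFA, and AREG and HBEGF. With the empty vector TGFA (28.9 TPM) and ERRFI1 (24.0) overlapped and stood above ERBB3 (17.9), AREG (8.06) and HBEGF (7.41 TPM), of which AREG and HBEGF overlapped. EREG was at most at 0.38 TPM in any library, and BTC was at 0.

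The 2 lines also differed in the levels of some ligands, as a description with no test between lines. In CPM, estimated in BICR31 from the size of 1 count, AREG ranged from 51.2 to 82.3 CPM over the 6 BICR31 libraries and from 2.38 to 7.48 CPM over the 6 HCC95 libraries. EREG ranged from 29.98 to 48.3 CPM in BICR31 and reached at most 0.297 CPM in HCC95, and BTC ranged from 4.65 to 12.1 CPM in BICR31. The tables of the 2 lines were processed separately.

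Around the receptors, 36 further genes of the pathway were followed: other ligands and ERBB4, ligand shedding, adaptors, receptor down-regulation and the RAS to ERK cascade. With siKLF5, limma called 12 of the 33 tested higher and 2 lower, where 15.3% of all genes were called higher and 10.8% lower, with a median log2 fold change of 0.20 against 0.04 over all genes. Of the 4 shedding genes 3 rose, and of the 6 adaptors 5 rose, while of 9 genes of receptor down-regulation 2 rose, and of 10 cascade genes 4 were called. Of the 5 adaptor calls 2 remained without siKLF5 B and 3 without siNC B. None of the 4 other ligands tested was called. The largest rise was that of SH3KBP1, an adaptor that helps CBL internalise EGFR, with 1578 ± 99.7 units with siKLF5 and 854 ± 36.1 units with siNC (log2 fold change 0.88, limma adjusted p = 2.83e-06). SOS2, a RAS exchange factor, rose, at 952 ± 64.7 units with siKLF5 and 545 ± 40.5 units with siNC (0.81, limma adjusted p = 8.35e-05).

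GAB1, a docking adaptor, rose by a log2 fold change of 0.66 (limma adjusted p = 0.00908), a call lost without siKLF5 B (0.0582). HRAS, a RAS GTPase, fell to 1500 ± 189 units with siKLF5, against 2070 ± 241 units with siNC (-0.47, limma adjusted p = 0.00303). The 3 shedding genes that rose, named after their values were seen, were the protease ADAM17 (log2 fold change 0.66, 2356 ± 106 units with siKLF5 and 1497 ± 93.1 units with siNC, limma adjusted p = 1.16e-05) and the iRhom genes RHBDF2 (0.60) and RHBDF1 (0.41), whose products carry ADAM17 to the cell surface. The call of RHBDF1 was lost without siKLF5 A (limma adjusted p = 0.0568).

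In HCC95, 31 of the 36 pathway genes were tested, and edgeR called 6 higher and 5 lower with E419Q and 3 higher and 5 lower with WT, each against the empty vector. Of all genes 10.4% were called higher and 10.8% lower with E419Q, and 10.8% and 12.1% with WT. Receptor down-regulation held the most calls, with 4 of 9 genes higher and 1 lower with E419Q, and 1 higher and 2 lower with WT. Of the 5 calls with E419Q 2 remained without E419Q A, and 3 without E419Q B, empty vector A or empty vector B. LRIG1 (ENSG00000144749.9), a transmembrane protein that promotes the breakdown of EGFR family receptors, had 189 and 195 CPM in the E419Q libraries, 43.8 and 45.6 CPM in the WT libraries, and 69.7 and 59.6 CPM in the empty-vector libraries. The 3 groups did not overlap, and the E419Q libraries were highest and the WT libraries lowest. LRIG1 rose 2.93-fold with E419Q (log2 fold change 1.55, edgeR adjusted p = 1.86e-11) and fell by 0.53 on the log2 scale with WT (edgeR adjusted p = 0.00109). E419Q libraries differed from WT libraries by a log2 fold change of 2.09 (edgeR adjusted p = 1.05e-12), and all 12 alternative settings called LRIG1 in each of the 3 comparisons. In BICR31 its log2 fold change of 0.61 did not pass limma's test.

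The neuregulin NRG1, a ligand of ERBB3, fell with both forms, to 882 and 777 CPM with E419Q and 960.2 and 923 CPM with WT, against 1246 and 1149 CPM with the empty vector. Its log2 fold changes were -0.56 with E419Q (edgeR adjusted p = 4.41e-07) and -0.36 with WT (edgeR adjusted p = 0.000138). Other rises with E419Q were those of GAB1 (1.05), CBLB (0.78), a ubiquitin ligase, and PTPN12 (0.56), a tyrosine phosphatase, and other falls those of MAP2K1 (-0.38), the kinase MEK1, LRIG3 (-0.35) and NRAS (-0.28), all with edgeR adjusted p-values of 0.0358 or less. CBLB lost this call without E419Q A (0.294) and empty vector B (0.161), MAP2K1 without E419Q A (0.151) and empty vector A (0.0918), and LRIG3 and NRAS without either E419Q library and without empty vector A, NRAS also without empty vector B. With WT the rises were those of NRG4 (1.37), at 31.9 counts over the WT libraries and 13 over the empty-vector libraries, CBLB (1.14) and the protease ADAM10 (0.38). NRG4 lost the call without any 1 of the 6 HCC95 libraries (edgeR adjusted p between 0.0602 and 0.291). LRIG3 (-0.38) fell with WT, a call lost without WT A (0.118) and empty vector A (0.0515), and NRAS (-0.37) fell, a call lost without WT A (0.0613).

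Between E419Q and WT, 3 of the 31 pathway genes were called, where 8.00% of all genes were called: LRIG1, PTPN12 (log2 fold change 0.38, edgeR adjusted p = 0.0173) and NRG1 (-0.20, edgeR adjusted p = 0.0427). The call of PTPN12 was lost without E419Q A (0.169), E419Q B (0.0708) and WT B (0.207), and that of NRG1 without E419Q B (0.4805), WT A (0.285) and WT B (0.0999).

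**Figure D4:**
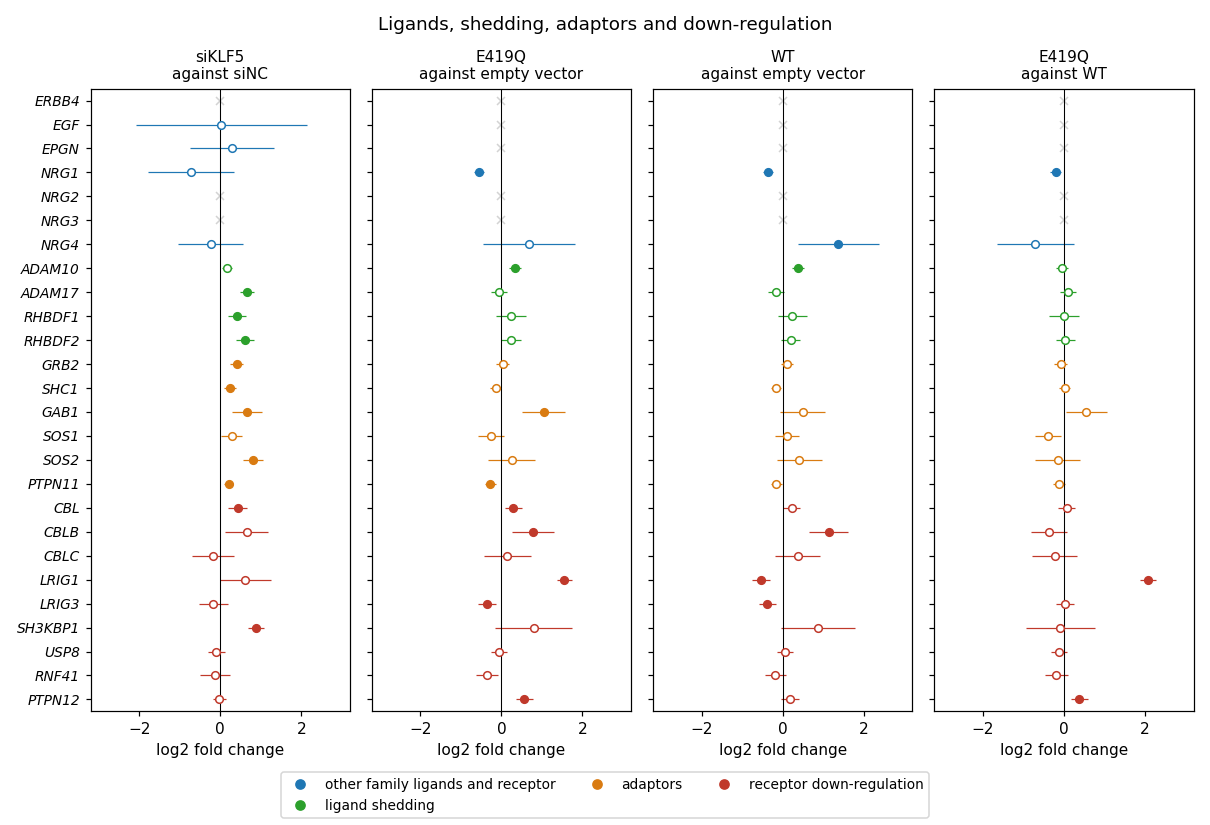
Log2 fold change of the other ligands and ERBB4, shedding genes, adaptors and genes of receptor down-regulation, with 95% intervals, in the 4 comparisons (siKLF5 against siNC, E419Q against empty vector, WT against empty vector, E419Q against WT); filled points have an adjusted p under 0.05 and grey crosses mark genes that were not tested. LRIG1 lies farthest to the right with E419Q, against both the empty vector and WT, and the adaptors and shedding genes lie mostly to the right with siKLF5.

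As a description, genes whose log2 levels followed those of a member most closely were sought over the 12 libraries, after subtraction of each cell line's mean, among 10264 genes. The 12 points share 2 cell lines and 5 groups. ERBB3 was followed most closely by SLC12A2 (Pearson r 0.978), TRIB2 (0.977) and CTNNA1 (0.972), EGFR by DAAM1 (0.918), TLN2 (0.886) and C1orf116 (0.885), and AREG by TBK1 (0.922), TGFBI (0.832) and MGAT5B (0.824). The values for AREG rest on the few AREG counts of HCC95.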

How the data were processed

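Poly(A) RNA had been sequenced in 12 libraries from 2 cell lines, grouped by the labels. RNA was isolated with RNeasy columns and NEB poly(A) and library kits, per the labels' protocols. STAR alignment and RSEM quantification per gene used hg19, per the submitters' processing notes, which also name edgeR and limma for HCC95 and give no versions. The HCC95 files hold RSEM expected counts, TPM and gene lengths, per the file headers. FPKM was not used. For BICR31 the authors deposited 1 column of signal, normalised by a step not given in the sources used here. Its upper quartile over values above 0 was 983 to 992 in every library, and a single count equalled 7.87 to 9.12 units. On division by that size 81.8% to 82.6% of those values were whole within 0.02, which gives the estimated counts.

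The members and gene lists were chosen with earlier results of these data known. The signal was tested with limma 3.58.1 on log2(signal + 1), with a mean-variance trend, where a gene's mean reached 10 units. Expected counts were rounded and tested with edgeR 4.0.16 (quasi-likelihood, TMM scaling, filterByExpr, all 6 HCC95 libraries). Fold changes on log2(signal + 1) understate changes of low genes. All tests were two-sided and adjusted by Benjamini-Hochberg over all genes and a threshold of 0.05. Intervals are 95%. A count of 0 was read as at most 3 counts, and this limit and the counts cover counting error only. CPM is relative to the library's total count, and TPM and signal per kb served to compare genes. Named were all members, KLF5, up to 4 called pathway genes in each direction by size (some genes are counted but not reported by name here), and the 3 genes closest in pattern to EGFR, ERBB3 and AREG. Within groups, libraries differed beyond sampling noise (chi-square over degrees of freedom 1.22 to 1.88, against 5.80 to 9.88 between groups), so each was counted. The tests were checked on simulated data. Alternatives were other scalings, filters and pseudocounts, limma without a trend, DESeq2 1.42.0, limma-voom, edgeR on the estimated counts of BICR31 (chosen after seeing the data), a replicate block and leaving out each library. Promoter windows came from RefSeq (GRCh38.p14). R 4.3.3 and Python 3.11.15 were used.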

Additional observations from a re-analysis of the deposited data

Results flagged for a closer look

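In HCC95 the effects of the 2 KLF5 forms, measured against the same empty-vector libraries, differed for 7 genes followed here, as tested by the direct comparison of E419Q with WT in edgeR. Of the 7 members tested 2 were called higher and 2 lower. Of the 31 pathway genes tested 2 were called higher and 1 lower, where 8.00% of all genes were called in either direction. Among the receptors the log2 difference was -0.72 for EGFR, 0.60 for ERBB2 and 0.54 for ERBB3. Among the ligands it was -0.75 for TGFA and -0.20 for NRG1. Among the genes of receptor down-regulation it was 2.09 for LRIG1, the largest of the differences listed here, and 0.38 for PTPN12. LRIG1 rose with E419Q and fell with WT, each against the empty vector, whereas TGFA and NRG1 fell with both forms. The calls of ERBB3, TGFA, NRG1 and PTPN12 were lost without single libraries, and those of EGFR, ERBB2 and LRIG1 were made under all 12 alternatives. No group had enough libraries to look for single libraries that stand apart.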

How the results depend on the processing

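Of 15 calls of members, 7 were made under all 12 alternatives: ERBB3 and ERRFI1 with siKLF5, EGFR with WT, ERBB2 and TGFA with E419Q against the empty vector, and EGFR and ERBB2 between E419Q and WT. The other 8 were lost under at least 1. Of the pathway calls, 6 of 14 with siKLF5, 3 of 11 with E419Q against the empty vector, 3 of 8 with WT and 1 of 3 between E419Q and WT were made under all alternatives. With limma without a trend, siKLF5 called 2281 genes rather than 4097, 2 members rather than 5 and 7 pathway genes rather than 14; AREG (adjusted p = 0.0929), EREG (0.0561) and BTC (0.0525) lost their calls. BTC also lost its call without a filter (limma adjusted p = 0.0621). With DESeq2 the genes called were 963 for E419Q against the empty vector, 951 for WT and 382 for E419Q against WT, against 2737, 2962 and 1034 with edgeR. With limma-voom they were 2728, 2979 and 1029. Members called with DESeq2 were 2, 1 and 2, and pathway genes 3, 3 and 1, in the same order. DESeq2 did not call ERBB3 with E419Q (adjusted p = 0.0881), TGFA (0.184) and ERRFI1 (0.282) with WT, or ERBB3 (0.154) and TGFA (0.154) between E419Q and WT. The cause of these differences was not tested.

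With single libraries left out, genes called ranged from 3194 to 3608 for siKLF5, 1626 to 2603 for E419Q against the empty vector, 1719 to 2792 for WT and 597 to 1172 for E419Q against WT. Members called ranged from 3 to 5, 2 to 4, 1 to 3 and 2 to 4 in that order, and pathway genes from 11 to 14, 6 to 10, 5 to 7 and 1 to 3. Directions that turned belonged to results that had not passed. Against the empty vector with E419Q the log2 fold change of EGFR ranged from -0.31 to 0.11, of AREG from -1.27 to 0.38 and of HBEGF from -0.083 to 0.13. With WT ERBB3 ranged from -0.14 to 0.14, AREG from -0.23 to 0.38 and HBEGF from -0.70 to 0.23. Between E419Q and WT AREG ranged from -1.28 to 0.36, HBEGF from -0.22 to 0.71 and ERRFI1 from -0.14 to 0.38. ERBB3 with WT was at -0.00019 without a filter and -0.0096 with DESeq2, and HBEGF with E419Q at -0.0066 without a filter.

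Libraries with the same letter did not deviate together (r between -0.041 and 0.026). In HCC95 the deviations of A and B mirror each other, since each group has 2 libraries. These values cannot show whether a letter marks a shared culture or day, which the labels do not say. With a replicate block 4076 genes were called for siKLF5, 2686 for E419Q against the empty vector, 2900 for WT and 987 between E419Q and WT. The block turned 2 values near 0, AREG with WT (-0.0032) and HBEGF with E419Q (-0.00063), called ERRFI1 with E419Q (edgeR adjusted p = 0.0479) and lost NRG4 with WT (0.0567). With 2 libraries a group in HCC95, folds of scarce ligands stay uncertain.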

Other observations

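Other ligands of the family differed in level between the 2 lines, as values from separately processed tables with no test. NRG1, a neuregulin that binds ERBB3, ranged from 777 to 1246 CPM over the 6 HCC95 libraries and from 1.74 to 4.16 estimated CPM over the 6 BICR31 libraries. EPGN, the neighbour of EREG, was at 0 in all HCC95 libraries and ranged from 2.08 to 3.05 estimated CPM in BICR31. SH3KBP1 ranged from 46.5 to 91.8 estimated CPM in BICR31 and from 1.72 to 4.88 CPM in HCC95. LRIG1 ranged from 6.21 to 13.9 estimated CPM in BICR31 and from 43.8 to 195 CPM in HCC95. The receptor ERBB4 was near 0 in both lines, at no more than 0.465 estimated CPM in BICR31 and 0.594 CPM in HCC95.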
